A study of Mus musculus with 72 samples.

Results

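Chemokines and their receptors were examined across muscle and 4 other tissues of WT and *Bmal1*-KO mice. The members were all protein-coding genes with a symbol of the chemokine ligand families (*Ccl*, *Cxcl*, *Cx3cl*, *Xcl*), of the chemokine receptors (*Ccr*, *Cxcr*, *Cx3cr*, *Xcr*), or of the atypical receptors (*Ackr*) whose mean normalized count was above 5 in at least 1 of the 6 separately normalized sets of libraries. Of 55401 genes in the tables, 60 protein-coding genes carried such a symbol and 54 passed the level, 32 ligands and 22 receptors. The mean was above 5 for 54 of them in lung, 47 in white fat, 35 in heart, 29 in liver, 29 in gastrocnemius, and 17 in a smaller gastrocnemius experiment with a GFP vector. *Ccr8*, a receptor of skin and regulatory T cells, lay just inside the level with 6.31 normalized counts in lung, and *Ccl19*, a ligand of the lymph node receptor CCR7, lay just outside it with 3.68 in white fat.

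The study asked what restoring *Bmal1* in muscle alone changes in male mice that lack it in the whole body. Gastrocnemius was taken at 10 weeks of age from 6 WT, 6 *Bmal1*-KO, and 7 KO+AAV libraries and at 40 weeks from 5 of each, where KO+AAV mice are *Bmal1*-KO mice injected as pups with an AAV9 vector that carries HA-tagged *Bmal1* under the muscle-specific CK6 promoter. A separate experiment at 10 weeks held 3 libraries of KO mice given an AAV9-CK6-GFP vector (KO+GFP) and 3 of KO mice as controls. Lung, heart, liver, and white fat were taken at 40 weeks from 4 KO and 4 KO+AAV mice each, with no WT group. Every group other than WT therefore carries the whole-body deletion. In the main experiment and the other tissues collection was at ZT1, 1 hour after lights on, so that a difference between groups is a difference at that hour. Reads on genes ranged from 10076827 to 41733282 a library in gastrocnemius at 10 weeks, from 9325122 to 13610317 at 40 weeks, from 6754312 to 8515400 in the GFP experiment, and from 36903079 to 50755829 in the other tissues. At 10 weeks, 3 WT, 3 KO, and 4 KO+AAV libraries were sequenced at ICBR and 3 of each group at Novogene, with Novogene for all later muscle libraries and ICBR for the 4 further tissues. The labels number replicates without stating that each is a separate mouse, and the tests measure the spread between these libraries.

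*Arntl*, the gene for BMAL1, was read first as a check of the labels. At 10 weeks its normalized count was 402, 527, and 634 (lowest, median, and highest) in WT, 196, 236, and 296 in KO, and 169, 222, and 281 in KO+AAV muscle. WT stood above both other groups without overlap, and reads on the gene remained in KO mice. At 40 weeks the 5 WT libraries had 608, 589, 573, 571, and 480 and the KO libraries 381, 1039, 395, 312, and 308. The library labelled KO replicate 2 was above every WT library, which goes against its label. In *Sln*, a gene of the marker lists read below, it had 2695 normalized counts, where WT had 7.08 to 25.1 and the other KO libraries 134 to 2348. Whether the label is right was not tested. Values without that library are given beside the tests and levels of 40-week KO muscle. The plots include it. The KO+AAV libraries of 40 weeks had 298, 268, 317, 359, and 313, within or near the range of the KO libraries other than replicate 2. In the other tissues *Arntl* had 596, 584, 652, and 679 in KO and 950, 1231, 781, and 836 in KO+AAV liver, a log2 difference of 0.58 that passed *P* under 0.01 (adjusted *P* = 0.997 with limma). The log2 difference was 0.32 in heart, 0.13 in lung, and -0.01 in white fat, none past *P* under 0.01 in limma. Whether these reads lie in or outside the deleted part cannot be told from a count per gene.

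Markers of each labelled tissue were read in every set. The summed count of 9 fast muscle fiber markers was 1245332 to 3383587 in gastrocnemius of the main experiment, and none of the tissue markers of fast muscle, liver, adipose tissue, lung alveoli, or heart ventricle was at 0 in its own tissue. Several libraries stood apart. In gastrocnemius at 10 weeks, KO+AAV replicate 5 had a summed count of 8501 over 12 macrophage and monocyte markers, led by *Lyz2*, where the other 18 libraries of that age had 419 to 2558. KO+AAV replicate 4 had a summed count of 115460 over 8 fibroblast markers, where the others of that age had 6543 to 23984. In heart, KO replicate 2 carried 1761750 counts of hepatocyte markers, against 381 to 496 in the other 7 libraries, and KO replicate 4 had 613664 counts of atrial markers, against 368 to 95560. In lung, KO replicate 1 had 1950 counts of B cell markers and 556 of atrial markers, where the other KO libraries had 8453 to 10191 and 6575 to 12699. In white fat KO replicate 2 carried 1871313 counts of epididymis markers.

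Chemokines are small secreted proteins that direct the movement of leukocytes along gradients, and most bind receptors that signal through inhibitory G proteins, raise calcium, and activate kinases of the cytoskeleton. CC chemokines such as CCL2 and CCL7 draw monocytes through CCR2, CXC chemokines draw neutrophils through CXCR2 or activated T cells through CXCR3, and CX3CL1, held on the cell surface by a mucin stalk, binds CX3CR1 on macrophages and monocytes. Atypical receptors bind chemokines without G protein signaling and remove them, as ACKR3 does with CXCL12.

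BMAL1 binds with CLOCK to E-boxes, while inflammatory and interferon signals reach chemokine genes through kappaB sites and interferon response elements. The 250 bases before the RefSeq start of each gene were therefore searched for 3 motifs in both directions, CACGTG (E-box), GGGNNTTCC (kappaB), and GAAANNGAA (interferon response element). RefSeq promoters of GRCm38.p6 were at hand for 41 of the 54 members. The promoters of 3 members with the changes described next are shown because they hold different sets of these letters, with every match in capitals. *Cxcl14* is on the minus strand at chr13:56296552-56296801, *Cx3cl1* on the plus strand at chr8:94771930-94772179, and *Cxcl10* on the minus strand at chr5:92348890-92349139. The GENCODE annotation, from which gene positions are given here, starts *Cx3cl1* further upstream than RefSeq does, so that 171 of its 250 bases lie inside the gene as drawn there, against 0 for the others shown.
Cxcl14: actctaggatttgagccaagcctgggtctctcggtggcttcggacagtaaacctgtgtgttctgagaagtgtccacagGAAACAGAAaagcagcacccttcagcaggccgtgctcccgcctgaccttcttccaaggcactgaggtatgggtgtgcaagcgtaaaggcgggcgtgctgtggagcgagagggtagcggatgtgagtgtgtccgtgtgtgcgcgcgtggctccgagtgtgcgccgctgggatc
Cx3cl1: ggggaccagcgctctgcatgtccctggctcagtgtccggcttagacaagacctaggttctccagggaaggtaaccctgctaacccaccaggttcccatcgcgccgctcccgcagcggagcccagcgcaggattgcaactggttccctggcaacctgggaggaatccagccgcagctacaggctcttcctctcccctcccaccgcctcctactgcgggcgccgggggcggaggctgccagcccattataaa
Cxcl10: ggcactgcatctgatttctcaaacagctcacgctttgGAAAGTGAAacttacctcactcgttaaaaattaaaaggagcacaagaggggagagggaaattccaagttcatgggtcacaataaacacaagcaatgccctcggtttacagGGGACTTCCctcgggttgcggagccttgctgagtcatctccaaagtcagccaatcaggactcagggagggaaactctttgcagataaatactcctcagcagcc

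The *Cxcl10* promoter held 1 kappaB match starting 103 bases and 1 interferon response element match starting 213 bases before the gene start, and the 2 did not overlap. *Cxcl14* held 1 interferon response element match 172 bases before its start, and *Cx3cl1* none of the 3 motifs. CACGTG lay in the promoters of 2 members, *Cxcl3* and *Xcr1*, and in 6.02% of all 32851 promoters searched. The kappaB letters lay in those of 7 members (*Ackr1*, *Ackr4*, *Ccl9*, *Ccl20*, *Ccr6*, *Cxcl9*, and *Cxcl10*; 4.98% of all promoters) and the interferon letters in 6 (*Ccl3*, *Ccr2*, *Cxcl9*, *Cxcl10*, *Cxcl14*, and *Cxcr1*; 7.13%). A match describes letters in this window and no bound site. The kappaB letters leave out forms with another spacing, such as gggaaattcc in the *Cxcl10* promoter, which were not searched.

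Levels between genes and tissues were compared per length, as reads per kilobase of exon scaled to the reads on genes of the library (RPKM), since the sets were normalized separately. In WT gastrocnemius at 10 weeks the leading ligands were *Cxcl14*, a chemokine of epithelia and connective tissue, at 21.2 ± 2.19 RPKM (SD, n = 6), *Cxcl12*, the stromal ligand of CXCR4, at 11.1 ± 2.01, and *Ccl11*, the eosinophil attractant eotaxin, at 7.33 ± 2.47. The leading receptor was the CXCL12 scavenger *Ackr3* at 4.07 ± 1.44 RPKM. In KO gastrocnemius at 40 weeks the ligand order was *Cxcl12* (8.46 ± 3.23 RPKM, n = 5), *Cxcl14* (7.58 ± 2.72), and *Cx3cl1* (3.80 ± 1.57), and the first 2 did not differ beyond their SDs. Without the library labelled KO replicate 2 the order was the same, with 9.57 ± 2.35, 6.93 ± 2.65, and 4.01 ± 1.73 RPKM (n = 4). *Ackr4*, which removes CCL19, CCL21, and CCL25, led the receptors there with 3.89 ± 0.673 RPKM, and with 3.98 ± 0.740 (n = 4) without the library labelled KO replicate 2. That rank was read in Novogene libraries alone, and the count of this gene differed between the sequencing sites (given with the 10-week values). *Ackr4* also shares 479 exon bases with *Acad11* on the other strand.

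Each of the other tissues of 40-week KO mice had its own leading members. These libraries came from ICBR and the 40-week muscle libraries from Novogene, so that muscle and site cannot be told apart in any order that sets muscle against them. Lung was led by *Cxcl15*, the airway chemokine lungkine, at 935 ± 55.6 RPKM (n = 4), followed by the myeloid chemokine *Ccl6* at 47.0 ± 12.4 and the mucosal chemokine *Cxcl17* at 38.9 ± 11.2. White fat was led by *Ccl8*, which draws monocytes, at 45.1 ± 30.4 RPKM, *Ccl6* at 38.6 ± 20.2, and *Ccl11* at 21.3 ± 14.04, which overlapped within their SDs. *Cxcl12* led heart at 19.0 ± 5.78 and liver at 29.2 ± 6.76 RPKM. The heart mean includes KO replicate 2, the library with hepatocyte markers. That library had 10876 normalized counts of *Cxcl12*, where the other KO hearts had 4561 to 6839. Of receptors, *Cxcr4* led lung at 23.0 ± 5.21 RPKM with *Ackr2*, a scavenger of inflammatory CC chemokines, at 16.1 ± 3.54, and *Ackr3* led heart at 14.3 ± 6.87 and white fat at 11.7 ± 4.33. Heart KO replicate 2 had 799 normalized counts of *Ackr3* and the other KO hearts 1572 to 2962. No receptor in liver passed 0.733 ± 0.102 RPKM, the level of *Ackr2*. Among KO tissues at 40 weeks, 35 of the 54 members were highest in lung, 12 in white fat, 3 in gastrocnemius (*Ackr4*, *Ccr10*, and *Cxcl10*), 2 in heart, and 2 in liver. These counts and the levels include heart KO replicate 2 and white fat KO replicate 2, the library with epididymis markers, and are not given without them. *Ccl28*, 1 of the 12 of white fat, had 838 and 2673 normalized counts in KO replicates 2 and 3 and 29.3 and 20.49 in replicates 1 and 4. All 54 passed the level in lung and 5 passed it there alone, so that these 5 are members only through lung and the rule favors its count. Only 18 members, 17 in lung and 1 in white fat, had every library of the highest tissue above every library of the next. *Cxcl10* had 0.705 RPKM in gastrocnemius and 0.684 in liver, and without the library labelled KO replicate 2 it had 0.606 in gastrocnemius and was highest in liver, the 1 member that moved. *Cxcl13*, a B cell ligand, had 1.17 in heart, from KO replicate 4, and 1.14 in white fat.

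**Figure D1:**
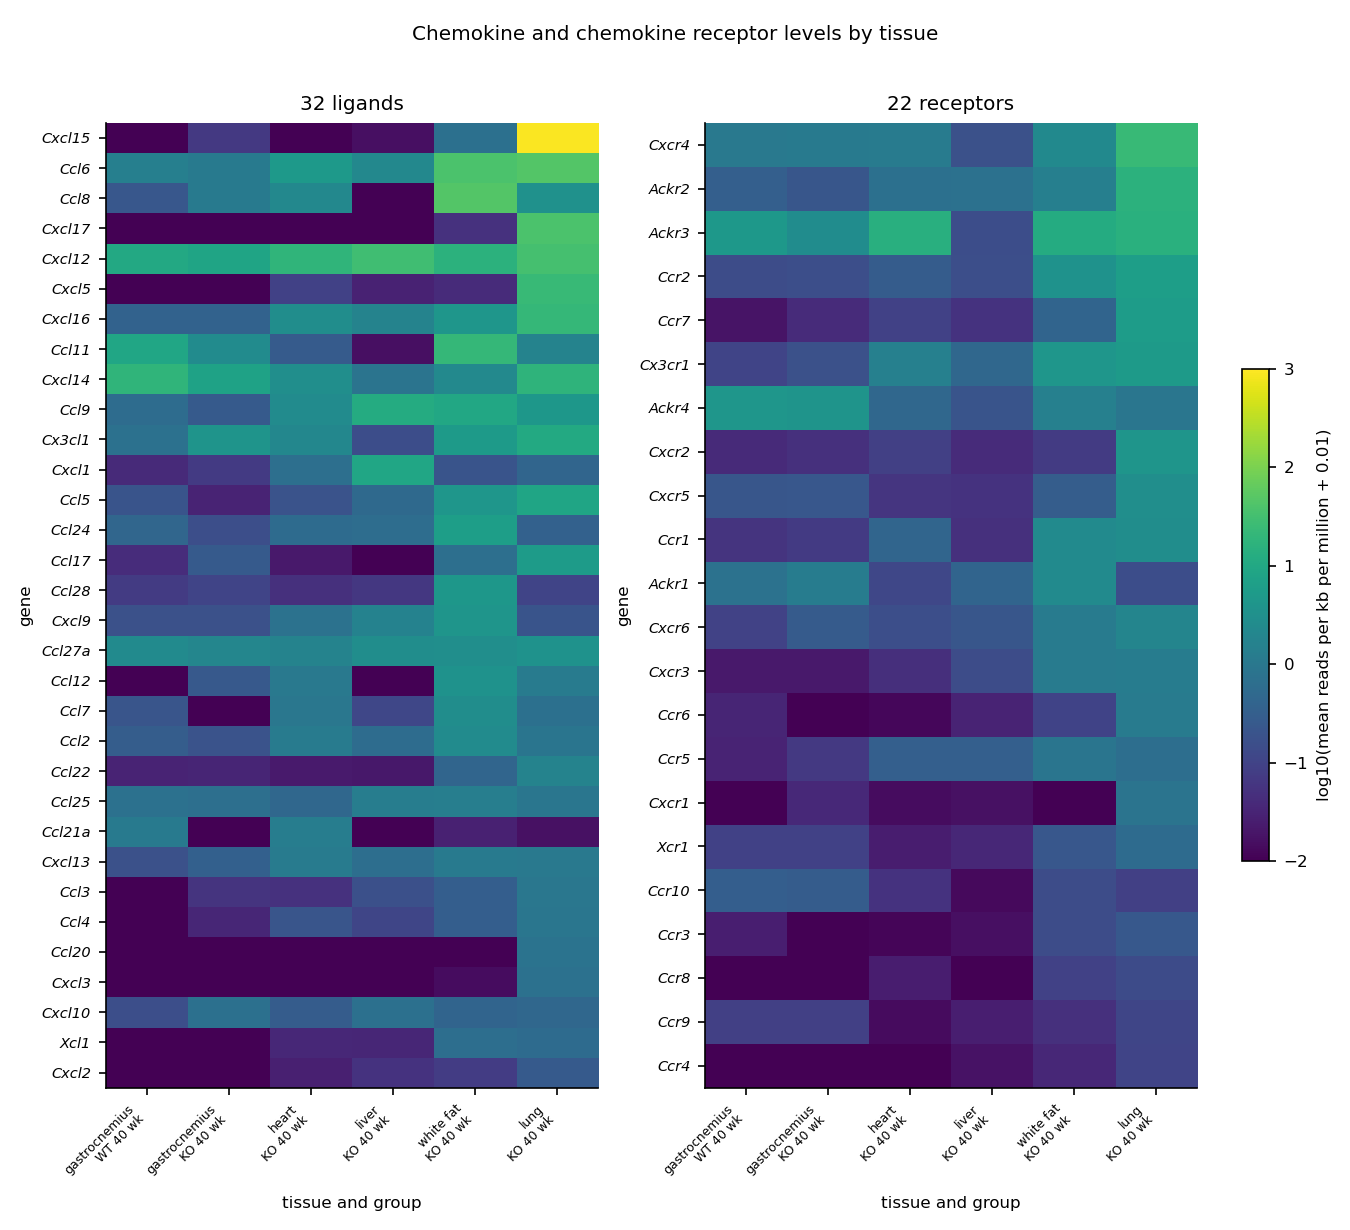
Heat map of the mean level of the 32 ligands and 22 receptors (rows) in WT and KO gastrocnemius and in heart, liver, white fat, and lung of KO mice, all at 40 weeks (columns), with color giving log10 of RPKM + 0.01. Lung holds the highest mean level of 35 members, led by *Cxcl15* at 935 RPKM, and white fat of 12. Of the 54 members, 5 passed the level only in lung.

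In gastrocnemius at 10 weeks, *Cxcl14* was higher in WT and *Cx3cr1* lower in WT than in KO muscle, and these were the 2 of 29 members tested that passed *P* under 0.01 in limma, where 10.9% of the 16199 genes tested passed. *Cxcl14* (ENSMUSG00000021508, chr13:56288643-56296551) had 551, 662, and 680 normalized counts in WT (lowest, median, and highest of 6) and 113, 189, and 424 in KO. Every WT library was above every KO library, with WT over KO at 1.63 on the log2 scale (SE 0.22, adjusted *P* = 2.91e-06 with limma). Within the sites it was 1.16 at Novogene and 2.10 at ICBR.

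*Cx3cr1* (ENSMUSG00000052336, chr9:119901616-120069879), the fractalkine receptor of macrophages and monocytes, had 1.51, 6.41, and 9.38 normalized counts in WT and 11.8, 25.6, and 36.9 in KO. The groups were again apart, as they were for 6.06% of all genes tested, and WT over KO was -1.97 on the log2 scale (SE 0.54, adjusted *P* = 0.0169), -1.79 at Novogene, and -2.16 at ICBR. Of the macrophage and monocyte markers, 0 of the 11 tested passed *P* under 0.01 and 2 an unadjusted *P* under 0.05 (limma), and their median log2 fold change was 0.19. Of 8 fibroblast markers, 4 were above 0, 1 was higher in WT at *P* under 0.01, the matrix gene *Dcn* (0.88, adjusted *P* = 0.0563), and 4 passed an unadjusted *P* under 0.05, and their summed count was 8024 to 23984 in WT and 6543 to 21981 in KO. The part of these cells in the 2 members' values was not tested. Counts at an unadjusted *P* under 0.05, here and below, come without the share of all genes at that level and cannot show an excess. In bulk tissue, fewer cells of a type and less RNA per cell cannot be told apart. The other 27 members did not pass. *Cxcl12* had a log2 fold change of 0.16 (95% interval -0.20 to 0.52) and its receptor *Cxcr4* of -0.65 (-1.37 to 0.08). At this age the count of *Ackr4* split by sequencing site, with 2.13 to 15.3 at ICBR and 258 to 438 at Novogene over all groups, and *Ccr10* (0 to 1.35 and 3.79 to 17.3) and *Cxcr5* were also apart between sites. The cause was not tested.

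At 40 weeks, 4 members passed *P* under 0.01 in WT versus KO, where 22.5% of all genes did. All 4 had an adjusted *P* under 0.05 in limma, as 3804 of the 16199 genes tested did. *Cx3cl1*, *Ccl11*, and *Cxcl14* were apart between the groups, as 13.6% of all genes were. *Cx3cl1* (ENSMUSG00000031778, chr8:94772009-94782427), or fractalkine, had 28.2, 40.1, 33.6, 73.5, and 59.4 normalized counts in the 5 WT libraries and 366, 218, 195, 359, and 121 in the KO libraries. The lowest KO library was above the highest WT library, a difference of -2.37 on the log2 scale (SE 0.27, adjusted *P* = 1.30e-07). *Cx3cr1*, which encodes its receptor, had a log2 fold change of -0.43 at this age (95% interval -1.63 to 0.77), and of -0.69 without the library labelled KO replicate 2.

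*Ccl11* (ENSMUSG00000020676, chr11:82057823-82062955) had 175, 145, 172, 160, and 181 normalized counts in WT and 27.5, 75.2, 44.4, 23.2, and 64.8 in KO. All WT libraries lay above the KO libraries, a log2 difference of 1.94 (SE 0.27, adjusted *P* = 3.60e-06). The other eotaxin, *Ccl24*, had a log2 fold change of 1.45 (95% interval -0.03 to 2.94), and of 1.055 without the same library. *Cxcl14* had 566, 600, 540, 432, and 692 in WT and 217, 349, 291, 150, and 159 in KO, a log2 difference of 1.34 (SE 0.24, adjusted *P* = 9.49e-05).

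The fourth member was *Ackr3* (ENSMUSG00000044337, chr1:90203980-90216751), which had 206, 256, 258, 224, and 311 normalized counts in WT and 128, 220, 139, 99.9, and 179 in KO. These groups overlapped through 1 KO library, replicate 2, and the log2 difference was 0.75 (SE 0.23, adjusted *P* = 0.0163). Of the KO libraries, the one labelled KO replicate 2 was also the highest for *Cxcl14* and *Ccl11*. Without it the log2 fold changes were -2.39 for *Cx3cl1*, 2.14 for *Ccl11*, 1.501 for *Cxcl14*, and 0.89 for *Ackr3*, and *Ackr2* passed as well (1.60, adjusted *P* = 0.0433). Of 8 fibroblast markers, 4 were higher in WT at the same age (median log2 fold change 1.04, with *Dcn* at 1.51, *Dpt* at 1.98, and *Pdgfra* at 1.27), while 0 of 11 macrophage markers passed *P* under 0.01 and 1 an unadjusted *P* under 0.05 (limma). Without the library labelled KO replicate 2, 4 fibroblast and 2 adipocyte markers were higher, as was 1 of 2 T cell markers (median 1.64). Of 7 blood vessel endothelium markers, 0 were then above 0 (median -0.35), 1 was lower, and 4 passed an unadjusted *P* under 0.05 in limma. With all libraries, 2 of 2 T cell and 1 of 7 endothelium markers passed an unadjusted *P* under 0.05 in limma. The summed fibroblast marker count, led by *Dcn*, was 7680 to 11661 in WT and 3369 to 6712 in KO, and 6 adipocyte markers, of which 2 were higher and all above 0 (median 1.60), had 345 to 2061 in WT and 256 to 826 in KO. The part of these cells in these results was not tested.

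**Figure D2:**
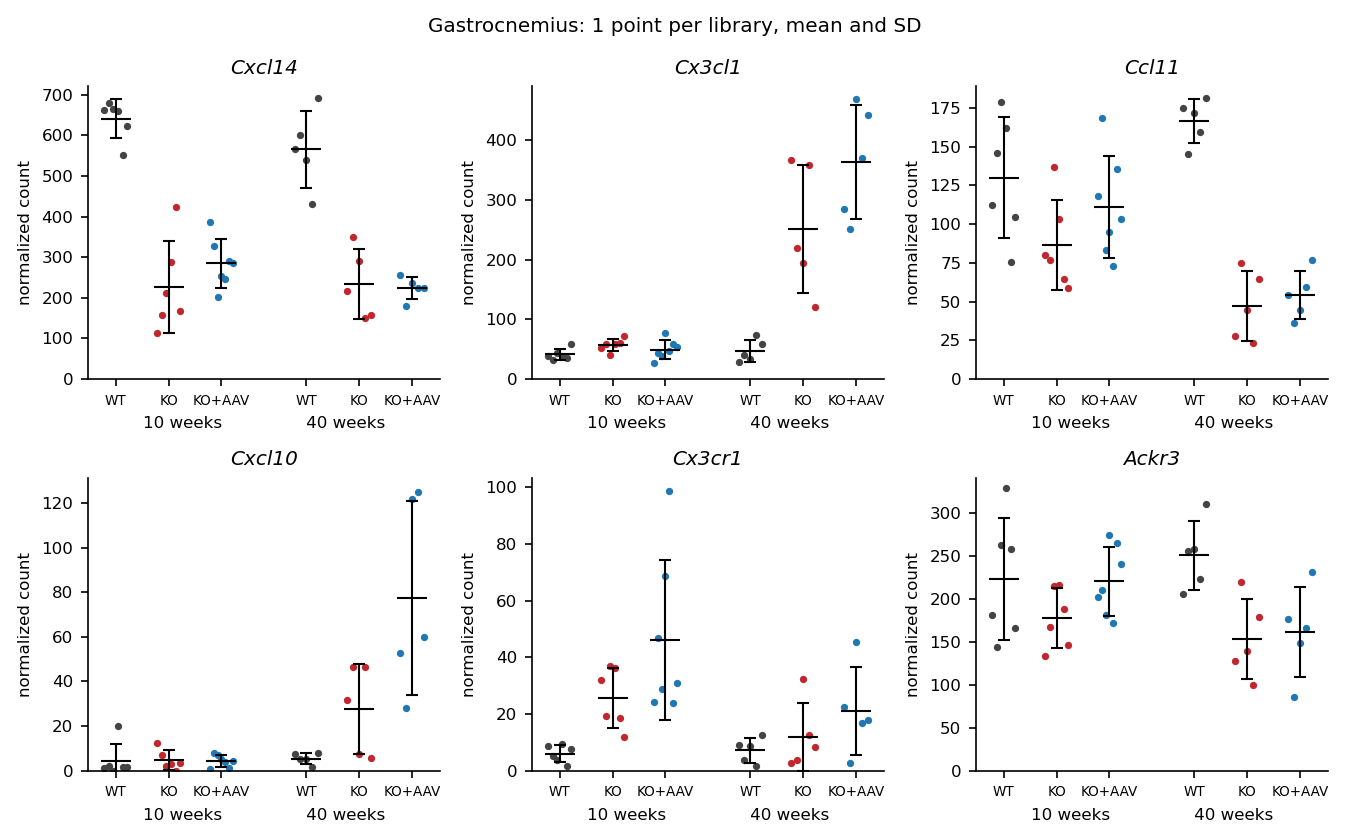
Normalized count of *Cxcl14*, *Cx3cl1*, *Ccl11*, *Cxcl10*, *Cx3cr1*, and *Ackr3* in each gastrocnemius library of WT, KO, and KO+AAV mice at 10 and 40 weeks, with points for libraries and bars for mean and SD. *Cxcl14* is higher in every WT library than in any KO library at both ages, and *Cx3cl1* is high in KO (252 ± 107) and KO+AAV (363 ± 95.1) muscle at 40 weeks only.

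KO+AAV muscle at 10 weeks was then compared with KO muscle, the comparison that carries the effect of restored *Bmal1* together with that of the vector. *Ccl7*, *Ccl9*, and *Ccl6* passed *P* under 0.01, 3 of 29 members against 2.63% of all genes. The mean of *Ccl7* was above 5 only through KO+AAV replicate 5, so that it was tested because of the group where it is high. None of the 29 had an adjusted *P* under 0.05 in limma or edgeR. DESeq2 gave 1, *Ccl2*, where 147 of all genes passed. In limma, 8 members passed an unadjusted *P* under 0.05. The means of *Ccl2* and *Ccr1* were likewise above 5 only through KO+AAV replicate 5, and that of *Ccl8* only through the KO+AAV libraries of 10 weeks. edgeR and DESeq2 each called 6 at 0.01, where they called 546 and 707 of all genes. Of the members, 21 of 29 had a log2 fold change above 0 with a median of 0.32 (0.21 over 49 members with no filter on low values), beside 51.9% of all genes and a median of 0.01. The 29 hold the members admitted through this group, so that the filter itself can add values above 0.

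*Ccl7* (ENSMUSG00000035373, chr11:82045712-82047525), a CCR2 ligand, had 0, 1.22, and 3.78 normalized counts in KO (lowest, median, and highest of 6) and 0.988, 5.31, and 159 in KO+AAV (of 7). *Ccl9*, a mouse ligand of CCR1, had 1.68, 21.6, and 51.3 in KO and 21.7, 42.5, and 257 in KO+AAV, and *Ccl6*, of the same kind, had 21.9, 31.0, and 88.2 in KO and 40.2, 71.3, and 474 in KO+AAV. The groups overlapped for each of the 3, and the highest library was KO+AAV replicate 5 each time. That library, with the summed macrophage marker count of 8501, also had the highest *Ccl2* (187) and *Ccr2* (270), which encode the main monocyte attractant and its receptor.

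With all libraries the log2 fold changes were 2.18 for *Ccl7* (SE 0.65, adjusted *P* = 0.223), 1.62 for *Ccl9* (SE 0.53, adjusted *P* = 0.278), and 1.37 for *Ccl6* (SE 0.47, adjusted *P* = 0.339). Without KO+AAV replicate 5 they were 1.46, 1.15, and 0.90, and no member passed *P* under 0.01. Without replicates 4 and 5 together, a choice made after the values were seen, they were 1.46, 1.04, and 0.81. The values also differed between sites: with Novogene libraries alone, which hold replicate 5, they were 3.66, 3.20, and 2.24, and with ICBR libraries alone 0.97, 0.23, and 0.61. *Ccl2* had a log2 fold change of 4.11 at Novogene and -0.16 at ICBR.

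Macrophage markers moved in the same libraries. All 11 tested had a log2 fold change above 0 in KO+AAV versus KO (median 1.24), and 0 of them passed *P* under 0.01 and 8 an unadjusted *P* under 0.05 in limma. *Adgre1*, a macrophage surface receptor, had a log2 fold change of 1.44 (adjusted *P* = 0.523), and the summed marker count was 854 to 8501 in KO+AAV and 419 to 1291 in KO muscle. Of 8 fibroblast markers, 7 were above 0 (median 0.60), with 0 past *P* under 0.01 and 4 past an unadjusted *P* under 0.05 in limma, and their summed count was 13543 to 115460 in KO+AAV and 6543 to 21981 in KO. The part of these cells in the chemokine values was not tested. *Cxcl14*, by contrast, had 203, 285, and 387 normalized counts in KO+AAV muscle, all below the lowest WT library, and a log2 fold change over KO of 0.45 (95% interval 0.02 to 0.88, adjusted *P* = 0.52), which was 0.00062 with Novogene and 0.86 with ICBR libraries alone. *Cx3cr1* had 23.8, 30.8, and 98.6 in KO+AAV and a log2 fold change of 0.72 (-0.34 to 1.77).

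The GFP experiment gave the response of KO muscle to the vector with another cargo, over 17 members. The labels do not give its time of day, so that it may differ from the ZT1 of the main experiment. *Ccl9* and *Cx3cr1* passed *P* under 0.01, 2 of 17 members against 8.24% of the 14477 genes tested. None had an adjusted *P* under 0.05 in limma, edgeR, or DESeq2, and 5 passed an unadjusted *P* under 0.05 in limma. edgeR called 2 and DESeq2 1, where they called 1226 and 959 of all genes. *Ccl9* had 20.3, 14.04, and 14.1 normalized counts in KO+GFP and 5.96, 6.82, and 5.18 in control muscle, a log2 difference of 1.28 (SE 0.37, adjusted *P* = 0.0844). *Cx3cr1* had 18.0, 24.0, and 26.4 against 4.96, 14.8, and 7.25, a log2 difference of 1.36 (SE 0.40, adjusted *P* = 0.0896). The KO+GFP libraries were above all controls for both, and for *Ccl6* (20.3, 23.1, and 22.9 against 11.9, 9.09, and 14.5, log2 fold change 0.87, adjusted *P* = 0.151). Groups were apart for 3 of 17 members and for 23.5% of all genes.

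Most macrophage markers were higher with the GFP vector, 7 of the 9 tested at *P* under 0.01 (limma, median log2 fold change 1.44), among them the complement gene *C1qa* at 2.47 (adjusted *P* = 0.00037), the growth factor receptor *Csf1r* at 1.12 (adjusted *P* = 0.00408), and *Adgre1* at 1.91 (adjusted *P* = 0.0386). Their summed count, led by *Lyz2*, was 608 to 896 in KO+GFP and 256 to 394 in control muscle, and 1 of the 12 markers was at 0 in every control library. Of 8 fibroblast markers, 5 were also higher, as were 3 of 5 ventricular heart markers and 2 of 9 of fast muscle fibers, where 2 were lower. All 4 Schwann cell markers tested were lower (median -1.22), with sums of 278 to 329 in KO+GFP and 719 to 923 in controls, and plasma cell markers, led by *Ighm*, had sums of 347 to 543 and 1227 to 1496. The part of these cells in the members' values was not tested. Side by side, *Ccl9* had a log2 fold change of 1.62 with the *Bmal1* vector and 1.28 with GFP, *Ccl6* of 1.37 and 0.87, *Cx3cr1* of 0.72 and 1.36, *Ccr2* of 1.36 and 0.01, and *Cxcl14* of 0.45 and 0.26. The experiments were normalized separately, and the difference between the vectors was not tested. *Ccl7* was under the level tested in the GFP experiment, with 2.25, 2.48, and 2.64 normalized counts in KO+GFP and 0.993, 0, and 0 in controls.

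**Figure D3:**
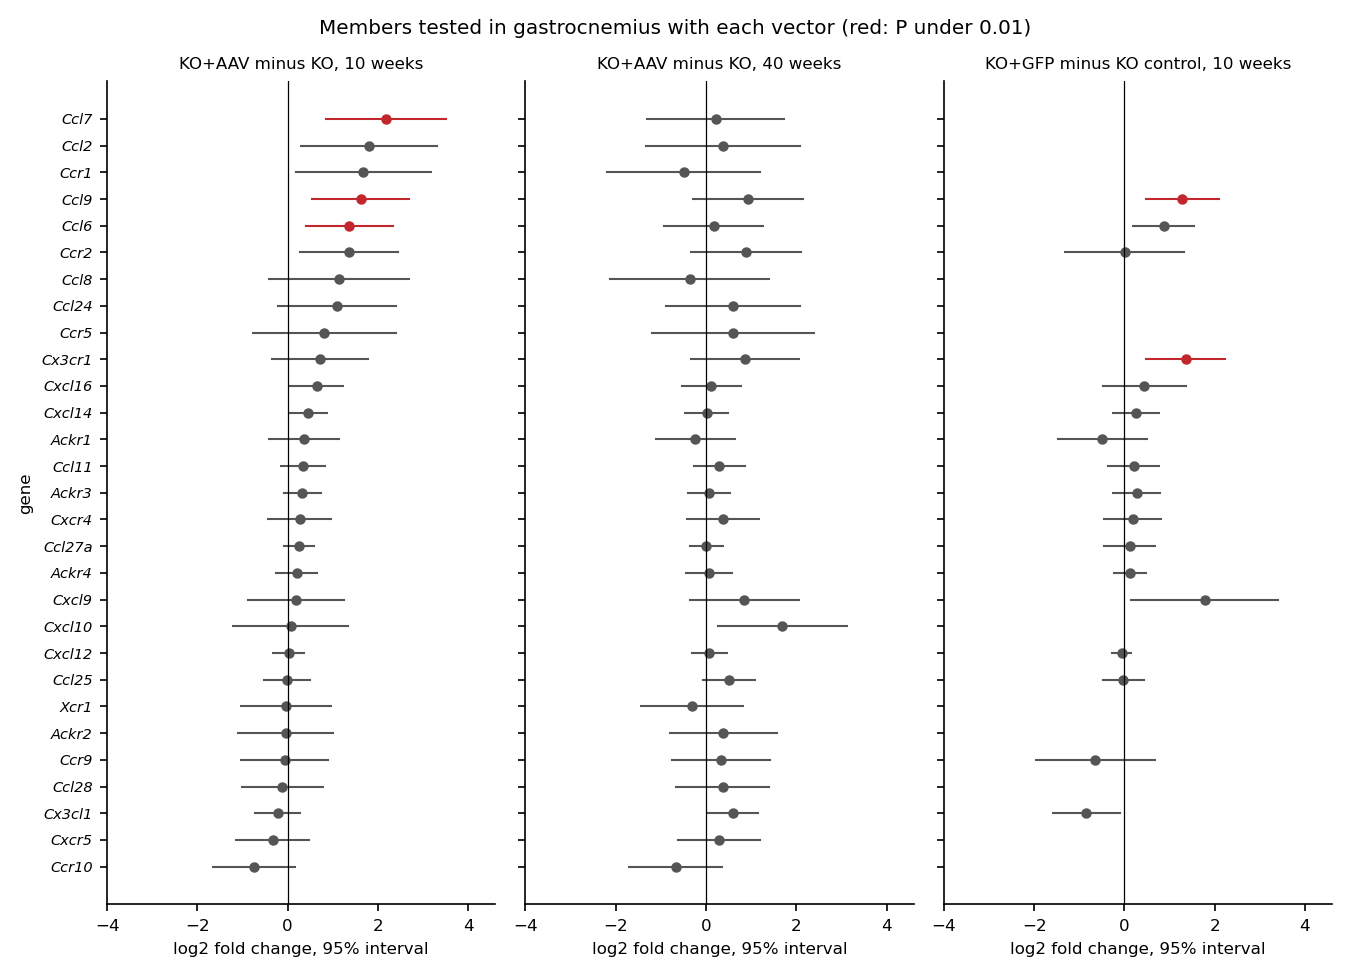
Log2 fold change with its 95% interval (limma) for the 29 members tested in gastrocnemius, in KO+AAV versus KO at 10 weeks and 40 weeks and in KO+GFP versus KO control at 10 weeks, with *P* under 0.01 in red. *Ccl7*, *Ccl9*, and *Ccl6* pass with the *Bmal1* vector at 10 weeks, none at 40 weeks, and *Ccl9* and *Cx3cr1* with GFP, where 17 members were tested. *Ccl7*, *Ccl2*, and *Ccr1* reached the level tested only through KO+AAV replicate 5 of 10 weeks.

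**Figure D4:**
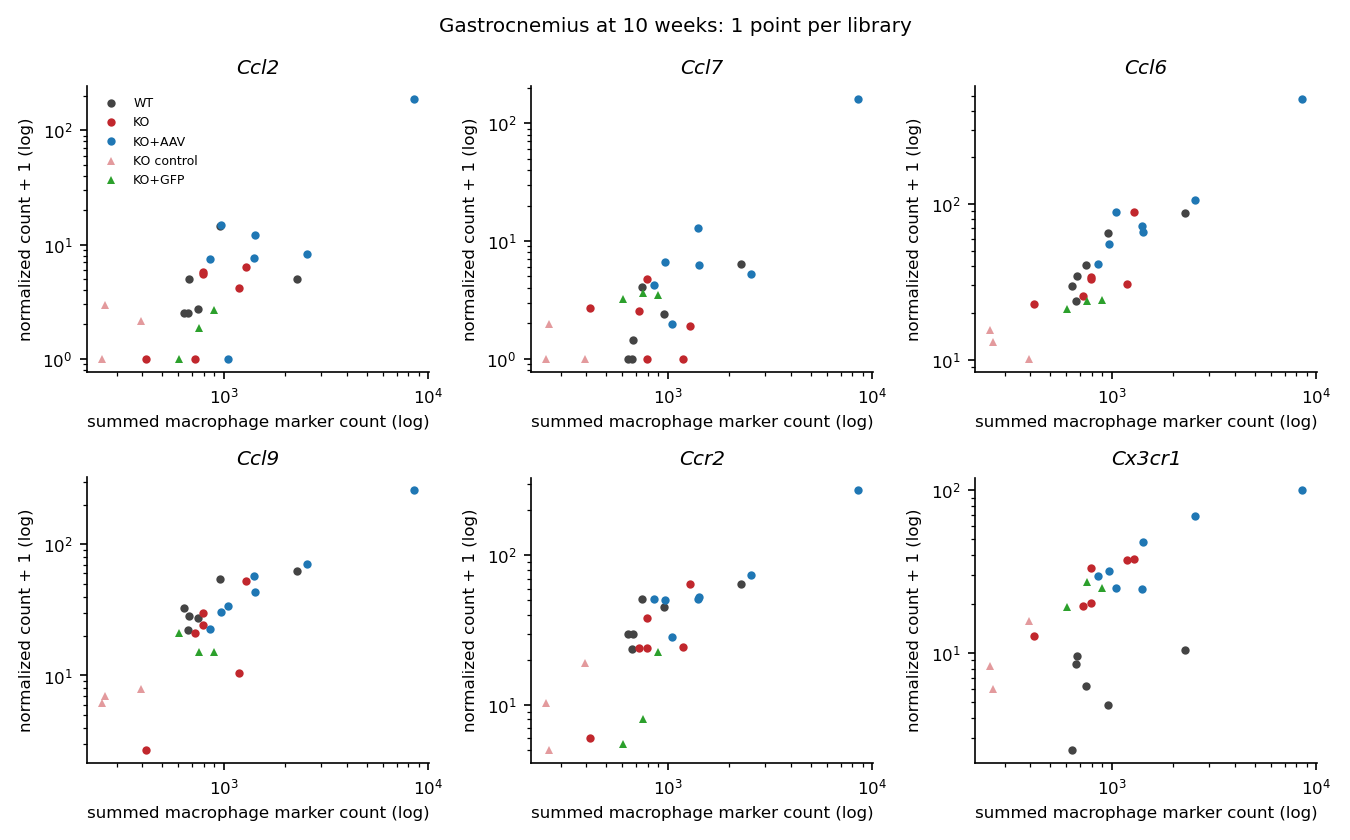
Normalized count + 1 (log axis) of *Ccl2*, *Ccl7*, *Ccl6*, *Ccl9*, *Ccr2*, and *Cx3cr1* in each 10-week gastrocnemius library against its summed count of 12 macrophage and monocyte markers (log axis), with circles for WT, KO, and KO+AAV and triangles for the GFP experiment, whose values were normalized separately. KO+AAV replicate 5, at 8501 marker counts, is the highest point for all 6 genes.

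At 40 weeks no member passed *P* under 0.01 in KO+AAV versus KO muscle in limma, edgeR, or DESeq2, against 3.25% of all genes in limma. At an unadjusted *P* under 0.05, 2 of 29 passed in limma, *Cxcl10* and *Cx3cl1*. *Cxcl10* (ENSMUSG00000034855, chr5:92346638-92348889), an interferon-induced ligand of CXCR3 on T cells, had 31.6, 46.6, 7.66, 46.4, and 5.52 normalized counts in KO and 52.6, 28.1, 122, 125, and 59.9 in KO+AAV. The gene shares 133 exon bases, 5.91% of its exons, with *Art3* on the other strand, where reads of either gene cannot be told apart without the strand setting. The groups overlapped, with a log2 difference of 1.69 (SE 0.70, adjusted *P* = 0.402). *Cx3cl1* had 284, 251, 468, 369, and 442 in KO+AAV, which lay 0.60 above KO on the log2 scale (SE 0.27, adjusted *P* = 0.457). Without the library labelled KO replicate 2 the differences were 1.99 for *Cxcl10* (adjusted *P* = 0.325) and 0.58 for *Cx3cl1* (adjusted *P* = 0.514), and 1 of 29 passed an unadjusted *P* under 0.05.

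The other 3 members that differed between WT and KO at this age did not pass the test between KO+AAV and KO muscle. The log2 fold change over KO was 0.01 for *Cxcl14* (95% interval -0.47 to 0.49), 0.30 for *Ccl11* (-0.26 to 0.85), and 0.06 for *Ackr3* (-0.40 to 0.52). Without the library labelled KO replicate 2, the highest KO library for all 3, they were 0.18, 0.50, and 0.20, and none passed an unadjusted *P* under 0.05 in limma. *Ccl7* was at 0 in all 5 KO libraries and in 4 of 5 KO+AAV libraries. Of all members, 24 of 29 had a log2 fold change above 0 with a median of 0.30, beside 53.0% of all genes and a median of 0.02. Without the library labelled KO replicate 2 it was 19 of 29 with a median of 0.20, and the median over all libraries was 0.12 in edgeR, 0.12 in DESeq2, 0.12 with no filter on low values, and 0.08 over the 9 members with a mean above 50. Marker lists that moved the same way with all libraries were those of dendritic cells (6 of 6 above 0, median 0.52, 2 past an unadjusted *P* under 0.05 in limma), adipocytes (6 of 6, 0.66, 1), Schwann cells (5 of 5, 0.72, 0), and mast cells (5 of 5, 0.59, 0), with 0 markers of these lists past *P* under 0.01. Their part in the members' values was not tested.

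WT was also set against KO+AAV muscle, a comparison that shares its WT libraries with that against KO. At 10 weeks, *Cxcl14*, *Cx3cr1*, and *Ccl7* passed *P* under 0.01, 3 of 29 members against 8.75% of all genes. Of these, *Ccl7* reached the level tested only through KO+AAV replicate 5, in the group where it is high. WT over KO+AAV was 1.18 on the log2 scale for *Cxcl14* (SE 0.21, adjusted *P* = 0.000413) and -2.69 for *Cx3cr1* (SE 0.52, adjusted *P* = 0.00105). *Ccl7* had -2.09 (SE 0.65, adjusted *P* = 0.0565), and -1.37 without KO+AAV replicate 5, where it no longer passed *P* under 0.01. It was -3.69 with Novogene and -0.76 with ICBR libraries alone. Of 11 macrophage markers, 10 were below 0 in WT (median -0.96) and 1 was lower, and of 8 fibroblast markers 1 was lower.

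At 40 weeks, 5 of 29 members passed, against 14.6% of all genes. Each had an adjusted *P* under 0.05 in limma, as 2018 of all genes did. WT was lower in *Cx3cl1*, by a log2 difference of -2.97 (SE 0.27, adjusted *P* = 4.91e-09), and in *Cxcl10*, with -3.53 (SE 0.70, adjusted *P* = 0.000808). The WT libraries had 7.41, 5.01, 5.31, 1.56, and 7.82 normalized counts of *Cxcl10*, where the KO+AAV libraries had 28.1 to 125. WT was higher in *Ccl11* (1.64, adjusted *P* = 8.07e-05), *Cxcl14* (1.33, adjusted *P* = 0.000203), and *Ackr3* (0.69, adjusted *P* = 0.0427). *Ackr3* had 177, 85.6, 149, 166, and 231 in KO+AAV muscle and overlapped WT through replicate 5. Of 8 fibroblast markers, 4 were also higher in WT (median 0.91), with *Dcn* at 1.18, and of 6 adipocyte markers 1 was higher (median 1.02) and 2 passed an unadjusted *P* under 0.05. The summed fibroblast count was 2719 to 10011 in KO+AAV muscle, and the part of these cells was not tested.

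The change from 10 to 40 weeks was followed within each genotype, where the older libraries all came from Novogene and the younger from both sites. In WT muscle, *Ccl27a*, a skin chemokine and ligand of CCR10, passed *P* under 0.01 as 1 of 29 members against 2.27% of all genes, with 60.5, 73.2, and 89.9 normalized counts at 10 weeks (lowest, median, and highest) and 94.9, 80.2, 113, 75.1, and 114 at 40 weeks. The ages overlapped, and the log2 fold change of 0.52 (SE 0.19) had an adjusted *P* of 0.419. Reads of *Ccl27a* may be shared with its near-identical copy *Ccl27b*. *Cx3cl1* had a log2 fold change of -0.01 in WT (95% interval -0.58 to 0.56). Adipocyte markers had 6 of 6 log2 fold changes above 0 with age in WT (median 1.46) and 2 were higher.

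In KO muscle, 4 of 29 members passed, against 12.1% of all genes. edgeR called 1 and DESeq2 2, where they called 1870 and 2073 of all genes. Only *Cx3cl1* passed in both tools and in limma with the libraries of the 2 ages alone, where no member had an adjusted *P* under 0.05 and 3 genes of all tested did. *Cx3cl1* rose from 40.0, 58.5, and 72.3 normalized counts at 10 weeks (lowest, median, and highest) to the 121 to 366 of 40 weeks, a log2 difference of 1.90 (SE 0.28, adjusted *P* = 0.000215) and of 1.86 with Novogene libraries alone. *Cxcl10* rose from 0, 3.25, and 12.3 with overlap, a log2 difference of 2.37 (SE 0.72, adjusted *P* = 0.0386), 3.01 with Novogene libraries alone, and 2.08 (adjusted *P* = 0.125) without the library labelled KO replicate 2. Over 20 alternatives this value ranged from 0.96 to 3.01, and 4 of them lost the call. *Ccl11* had a log2 fold change of -0.80 (adjusted *P* = 0.0685) and *Ccl27a* of 0.53 (adjusted *P* = 0.0703). Without that library they were -1.004 (adjusted *P* = 0.0425) and 0.61 (adjusted *P* = 0.0752), and *Cx3cl1* had 1.92. Fibroblast markers had 8 of 8 log2 fold changes below 0 over the same ages (median -0.64), 1 past *P* under 0.01 and 3 past an unadjusted *P* under 0.05, and the median was -0.59 without that library. Their part in the *Ccl11* values was not tested.

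KO+AAV muscle had 4 members past *P* under 0.01, against 12.1% of all genes. *Cx3cl1* went from 26.2, 46.8, and 76.5 to between 251 and 468 (log2 fold change 2.72, SE 0.28, adjusted *P* = 3.63e-07), and *Cxcl10* from 0.494, 4.20, and 7.97 to between 28.1 and 125 (4.001, SE 0.72, adjusted *P* = 0.000537). *Ccl7* fell, with 1 read left over the 5 libraries of 40 weeks and 168 over the 7 of 10 weeks, a ratio of 59.0 after depth (95% exact interval 10.4 to 2343, counting error only). Without replicate 5 of 10 weeks the 10-week libraries held 42 reads, a ratio of 15.9 (2.71 to 644). *Ccl7* reached the level tested only through that replicate, so that its call with age depends on the group that admitted it. *Ccl11* had a log2 fold change of -0.85 (adjusted *P* = 0.0525). Macrophage markers had 11 of 11 log2 fold changes below 0 over the same ages (median -1.44), 1 past *P* under 0.01 and 7 past an unadjusted *P* under 0.05. Fibroblast markers had 8 of 8 below 0 (median -1.04), 2 past *P* under 0.01 and 7 past an unadjusted *P* under 0.05. The part of these cells in the results was not tested.

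The difference between genotypes in the change with age was tested as an interaction. *Cx3cl1* and *Ccl11* passed *P* under 0.01 for KO against WT, 2 of 29 members against 4.47% of all genes. The rise of *Cx3cl1* was larger in KO by 1.91 on the log2 scale (SE 0.37, adjusted *P* = 0.0188) and 1.93 without the library labelled KO replicate 2. The change of *Ccl11* was lower in KO by a log2 difference of -1.36 (SE 0.37, adjusted *P* = 0.098) and of -1.56 (adjusted *P* = 0.0581) without that library. In the same interaction, 7 of 8 fibroblast markers were below 0 (median -0.60, or -0.72 without that library) and 5 of 6 adipocyte markers (median -1.42 both ways), with 1 of each lower at *P* under 0.01. Their part in the *Ccl11* result was not tested. For KO+AAV against KO, 0 of 29 members passed *P* under 0.01 in limma, edgeR, or DESeq2, against 1.08% of all genes in limma, and 1 passed an unadjusted *P* under 0.05, *Cx3cl1*, with a difference of 0.82 (SE 0.37, adjusted *P* = 0.929) and of 0.80 without the same library.

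In lung, KO+AAV and KO mice of 40 weeks were compared over all 54 members. *Cxcl15*, *Cx3cl1*, and *Cxcl17* passed *P* under 0.01, 3 of 54 against 3.96% of the 21072 genes tested. At an unadjusted *P* under 0.05 in limma 10 members passed, with no share of all genes at hand for that level. None of the 54 had an adjusted *P* under 0.05 in limma or edgeR. In DESeq2 2 did, *Cxcl15* and *Cxcl17*, as did 626 of all genes. At 0.01 edgeR called 3 and DESeq2 5, beside 851 and 1248 of all genes. *Cxcl15* had 93780, 83802, 80280, and 91963 normalized counts in KO and 70096, 64167, 72889, and 67099 in KO+AAV, a log2 difference of -0.35 (SE 0.09, adjusted *P* = 0.176). *Cx3cl1* had 1925, 1959, 1738, and 1924 in KO and 1560, 1671, 1419, and 1659 in KO+AAV (-0.26, SE 0.07, adjusted *P* = 0.219). *Cxcl17* had 925, 1556, 1062, and 1637 in KO and 1701, 2120, 2281, and 2582 in KO+AAV (0.77, SE 0.20, adjusted *P* = 0.185).

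The groups did not overlap for any of these 3, nor for *Ackr1*, *Ccl24*, and *Cxcl16*, 6 of 54 members against 6.77% of all genes. Other cell types moved with the same groups of lung libraries. The summed count of atrial heart markers was 556 to 12699 in KO and 17546 to 66198 in KO+AAV lung, that of alveolar markers 868926 to 1275661 and 698728 to 857223, and that of macrophage markers 148208 to 204699 and 115749 to 145393. Of 9 neutrophil markers, 8 were below 0 (median -1.02) and 6 passed an unadjusted *P* under 0.05 in limma, while *Ltf*, a protein of neutrophil granules and of secretory epithelium, was higher by 3.84. Their summed count, led by *S100a9* in KO and by *Ltf* in KO+AAV, was 5406 to 12056 in KO and 11839 to 21581 in KO+AAV lung. Of 7 airway markers, 5 were higher in KO+AAV at *P* under 0.01, among them *Krt5* of basal cells with a log2 fold change of 5.68 (adjusted *P* = 0.00317), while the most abundant, *Scgb1a1* of club cells, had 0.03. The part of these cells in the 3 members' values was not tested. Without KO lung replicate 1 the log2 differences were -0.32 for *Cxcl15*, -0.25 for *Cx3cl1*, which no longer passed, and 0.62 for *Cxcl17*.

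In liver, *Ccl9* alone of 29 members passed *P* under 0.01, where 0.546% of 16656 genes did. It had 1312, 1396, 1687, and 1709 normalized counts in KO and 994, 1093, 1033, and 1140 in KO+AAV, at a log2 difference of -0.51 (SE 0.10, adjusted *P* = 0.997 in limma). At an adjusted *P* under 0.05 it was called by DESeq2, as were 8 of all genes, and not by edgeR. Of 12 macrophage markers, 12 had a log2 fold change below 0 and 1 passed. *Cxcl1*, a neutrophil attractant, was high in 1 KO liver, with 2654, 112, 149, and 68.6 in KO and 229, 233, 84.9, and 63.6 in KO+AAV.

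No member passed *P* under 0.01 in heart (35 tested, 0.0829% of 18089 genes) or white fat (47 tested, 0.0711% of 21092 genes) in limma. At an unadjusted *P* under 0.05, 1 passed in heart and 0 in white fat, and edgeR called 0 and 0 and DESeq2 1 and 0 at *P* under 0.01. Over all genes DESeq2 called 82 in heart and 125 in white fat. The member in heart was *Ccl21a*, a lymph node chemokine whose reads may be shared with *Ccl21b*. It had 1.23, 0, 101, and 76.4 normalized counts in the KO libraries and 0 in each KO+AAV library, so that 2 KO hearts carried it. Without KO heart replicates 2 and 4, a choice made after the values were seen, no member passed *P* under 0.01 in limma. *Ccl28*, an epithelial ligand of CCR10, had 29.3, 838, 2673, and 20.49 in KO fat and 27.0, 1663, 20.3, and 43.6 in KO+AAV fat. It was high in KO replicates 2 and 3 and KO+AAV replicate 2, the libraries with 1871313, 1115, and 776 counts of epididymis markers, against 3.24 to 37.7 in the other 5.

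**Figure D5:**
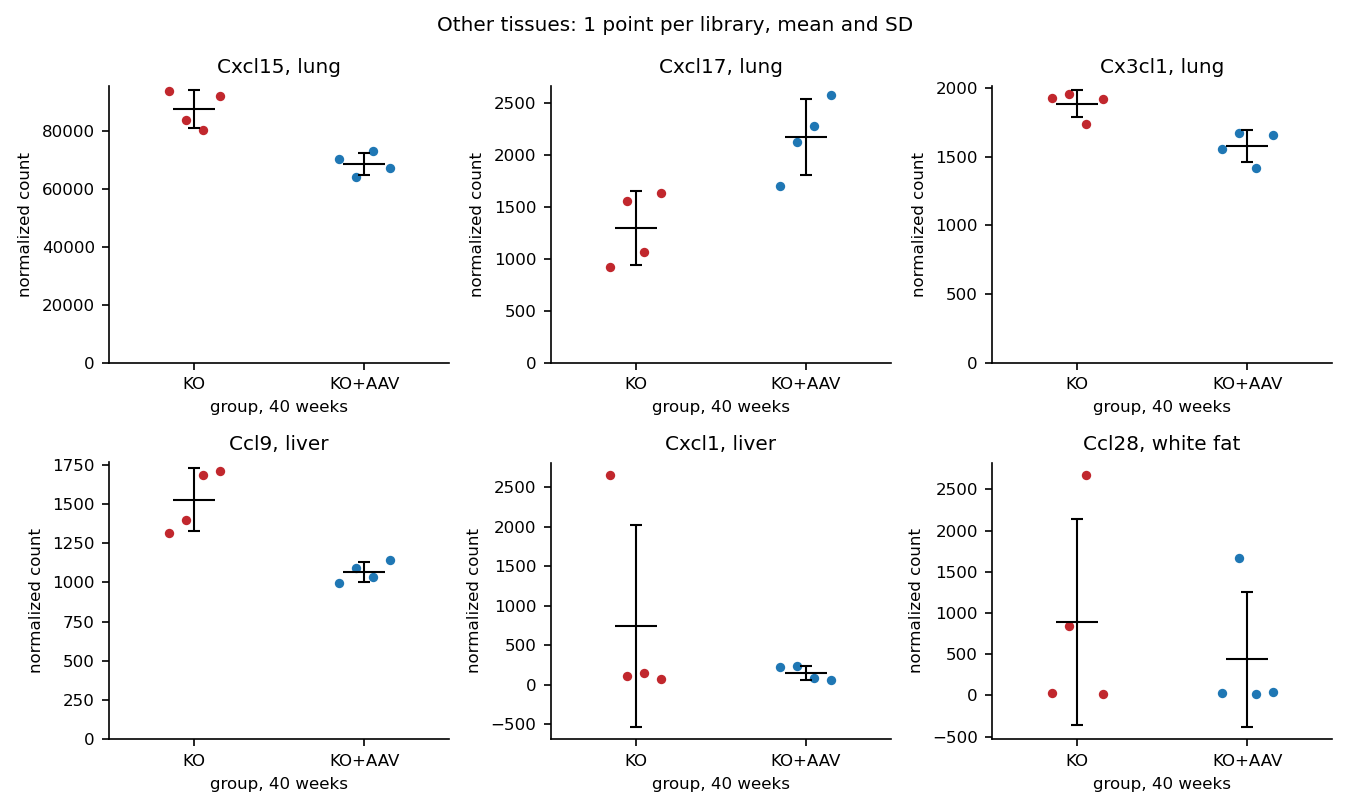
Normalized count in each of 4 KO and 4 KO+AAV libraries at 40 weeks (points, with mean and SD) of *Cxcl15*, *Cxcl17*, and *Cx3cl1* in lung, *Ccl9* and *Cxcl1* in liver, and *Ccl28* in white fat. The lung genes have groups without overlap, as 6.77% of all genes in lung do, and liver *Ccl9* is lower in KO+AAV. *Cxcl1* and *Ccl28* are high in 1 and 3 libraries.

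Genes that carry the signal of the receptors were read from a list of 34, of which 28 were tested in gastrocnemius. In WT versus KO at 10 weeks, 5 were higher and 2 lower (7 of 28, against 10.9% of all genes), and at 40 weeks 5 higher and 1 lower (6 of 28, against 22.5%), or 5 and 2 without the library labelled KO replicate 2. *Tiam1*, an activator of RAC in migrating cells, had log2 fold changes of 1.90 and 3.43 at the 2 ages, *Grk3*, a kinase that silences active receptors, of 1.44 and 2.08, and *Rgs2*, a brake on G proteins, of -1.72 and -2.73. Without the same library the 40-week values were 3.23, 1.98, and -2.44. In KO+AAV versus KO, 26 of 28 had a log2 fold change above 0 at 10 weeks (51.9% of all genes) and 5 were higher (2.63% of all genes called), with *Grk3* at 0.95 (adjusted *P* = 0.0387). Without KO+AAV replicate 5, the library highest in macrophage markers, 27 of 28 were above 0 and 2 were higher, *Grk3* at 0.95 (adjusted *P* = 0.076) and *Tiam1* at 1.04, while the macrophage markers still had 11 of 11 above 0 (median 0.70). Their part in this list was not tested. At 40 weeks 1 was higher (3.25%), *Tiam1* at 1.53, and at 1.33 without the library labelled KO replicate 2.

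Signals upstream of chemokine genes were read as well. Of 17 genes of TNF, IL-1, and NF-kB signaling, 3 were lower and 1 higher in WT than in KO at 40 weeks, 4 of 17 against 22.5% of all genes, and as many without the library labelled KO replicate 2. The lower were the NF-kB subunits *Nfkb2* (-1.02) and *Rela* (-0.45) and the adhesion molecule *Icam1* (-1.36). From 10 to 40 weeks in KO muscle, 4 were higher (against 12.1% of all genes) and 3 without that library, among them *Nfkb2* (0.70 with and 0.66 without it) and *Icam1* (0.95 both times). Of 16 interferon response genes, 0 had a log2 fold change above 0 with age in KO muscle and 6 were lower, such as *Isg15* (-1.34) and *Oasl2* (-1.46), with a median of -0.93, beside 48.7% of all genes above 0 and 12.1% called. Without the library labelled KO replicate 2, 1 of 16 was above 0, 4 were lower, and the median was -0.61, with *Oasl2* at -1.01 and *Isg15*, at -0.97, no longer past *P* under 0.01. In KO+AAV versus KO at 40 weeks, 16 of 16 had a log2 fold change above 0 (median 0.55, beside 53.0% of all genes) and 3 were higher (3.25% of all genes called), *Isg15* at 1.32, *Usp18* at 1.36, and *Igtp* at 0.73. These values rested in part on that library, without which 13 of 16 were above 0 (median 0.26) and only *Igtp* passed (0.66), with *Isg15* at 0.95 and *Usp18* at 0.53. Of 4 chemokine relatives outside the symbol rule, *Pf4*, the platelet chemokine, at 1.94 and *Ccrl2*, a receptor for chemerin, at 1.12 were higher in WT than in KO at 40 weeks, and at 2.001 and 1.29 without the library labelled KO replicate 2.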

How the data were processed

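Poly(A)-selected RNA-Seq libraries of mouse tissue were analyzed. The authors used HISAT2 on GRCm38 and HTSeq to count reads per gene, divided each library's counts by 1 DESeq2 size factor, and deposited these normalized counts as signal values, separately for gastrocnemius, each other tissue, and the GFP experiment. The annotation release and strand setting of the counting are not given in the sources used here, so members that overlap another gene (*Cxcl16*, *Xcl1*, *Ccr9*, *Ackr1*, *Ackr4*, *Cxcl10*, and others) are uncertain. Multiplying by the size factor gave whole reads for 100% of values in 72 libraries, within 0.01 read.

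Log2(normalized count + 1) was tested with limma 3.58.1 (intensity trend, R 4.3.3) over genes with a mean above 5, in 1 model of 34 gastrocnemius libraries with sequencing site as a covariate, and in 1 model each for the GFP experiment and the other tissues. Calls have *P* under 0.01, the study's rule. Counts at an unadjusted *P* under 0.05 are given without the share of all genes at that level. Adjusted *P* is Benjamini-Hochberg over all genes tested. Log2 fold changes on this scale understate changes of low genes. Alternatives were edgeR 4.0.16 (quasi-likelihood) and DESeq2 1.42.0 on the recovered reads, where edgeR called 14 to 3510 genes a comparison, 0.5 as the pseudocount, a mean above 50 or no filter, other site terms, and libraries left out. The code was tested on simulated data.

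Members named were those with *P* under 0.01 in any comparison, the 3 ligands and 3 receptors of highest level in each tissue, and those of functional lists. Members and lists were chosen with earlier results of these data known. *Cxcl1* and *Ccl28* of single libraries were named after their values were seen. Python 3.11.15 with matplotlib 3.10.9 drew the plots.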

Additional observations from a re-analysis of the deposited data

Results flagged for a closer look

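Over 47 sets of values, each a called member in 1 group of 4 to 7 libraries, the gap between the most extreme library and its neighbor was set against the range of the group. Chance meets this criterion in about 1 of 20 sets of normally distributed values. The counts used here are skewed and some are 0, so that this rate may not hold for them. KO+AAV replicate 5 at 10 weeks stood apart in *Ccl6* (473.9 normalized counts, next library 105.2), *Ccl7* (159.2, next 11.9), and *Ccl9* (256.5, next 70.0). The same library had the highest summed count of macrophage markers, and *Ccl7* reached the level tested only through it. KO replicate 3 at 10 weeks stood apart in *Ccl6* (88.2, next 33.05), and had the highest macrophage marker sum of the KO libraries, 1291. KO+AAV replicate 3 at 40 weeks had 1.11 normalized counts of *Ccl7*, which is 1 read, where the other 4 libraries had 0. KO lung replicate 3 was the lowest of its group in *Cx3cl1* (1738, next 1924).

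The change with age differed between KO and WT muscle for *Cx3cl1*, by 1.91 on the log2 scale, and for *Ccl11*, by -1.36. Both were tested as an interaction in limma (adjusted *P* = 0.0188 and 0.098).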

How the results depend on the processing

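Of 701 alternatives for the 34 calls of single members, 611 kept the call, 90 lost it, and 0 reversed direction. The count of members called moved by more than 1.5 times as follows. With a mean above 50, the count was 1 for each of the 3 comparisons of genotypes at 10 weeks (WT versus KO 2 in the report, the others 3), 2 for age in KO+AAV (4 in the report), and 0 for GFP (2 in the report), since fewer members were tested. edgeR gave 6 and DESeq2 6 for KO+AAV versus KO at 10 weeks, 5 and 6 for WT versus KO+AAV at 10 weeks, 1 and 2 for age in KO (4 in the report), and 9 and 8 for age in KO+AAV. Over all genes they called 1598 and 1865 for WT versus KO+AAV at 10 weeks and 2061 and 2331 for age in KO+AAV. DESeq2 gave 2 for age in WT (1 in the report), 1 for GFP, 5 for lung (3 in the report), and 1 for heart (0 in the report). For age in WT, no filter gave 2, no site term 0, the 2 ages alone 2, and Novogene alone 0. The 2 groups alone gave 1 for KO+AAV versus KO at 10 weeks, 2 for age in KO, and 7 for age in KO+AAV, where no site term also gave 7. KO+AAV versus KO at 10 weeks had 5 with Novogene alone, 1 with ICBR alone, and 0 without KO+AAV replicates 4 and 5, a choice made after the data were seen. The cause of these shifts was not tested.

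Leaving out 1 library at a time gave 0 to 5 calls for KO+AAV versus KO at 10 weeks (0 without KO+AAV replicate 5, 1 without KO replicate 5 or 7, 5 without KO+AAV replicate 1), 0 to 1 for age in WT (0 without 40-week replicate 1, 3, or 5 or 10-week replicate 3, 4, or 6), 2 to 5 for age in KO (2 without 40-week replicate 4), 3 to 6 for age in KO+AAV, 0 to 4 for GFP, 1 to 6 for lung (6 without KO+AAV replicate 1, 1 without KO+AAV replicate 3 or KO replicate 4), 0 to 1 for heart (1 without KO replicate 2), and 1 to 2 for liver (2 without KO replicate 2 or 3). Where this left 2 libraries in a GFP group, the spread was pooled over both groups.

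Replicate numbers did not pair the samples by the criterion that every same-numbered pair correlates above 0.1. The median correlation of same-numbered deviations was -0.02 in gastrocnemius at 10 weeks, 0.04 at 40 weeks, and between -0.04 and 0.05 elsewhere, except in white fat with 0.44 (other pairs -0.22), where the lowest of 4 pairs had -0.38. With the replicate block, age in KO had 0 members with an adjusted *P* under 0.05 in place of 2, and age in WT had 2 calls in place of 1. Every other total of members called stayed within 1.5 times of that in the report. By direction, lung had 2 higher and 1 lower in place of 1 and 2, and age in KO 3 and 0 in place of 3 and 1. Over all genes, calls went from 1961 to 665 for age in KO and from 1958 to 895 for age in KO+AAV. They went from 368 to 224 for age in WT and from 15 to 36 in white fat.

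The GFP experiment had the fewest reads on genes and the fewest members above the level tested, 17, and whether depth set that number was not tested. Low members such as *Ccl7* and *Ccr1* rest on few reads.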

Other observations

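*Cxcl11*, the third CXCR3 ligand, is not annotated as protein coding and was left out of the members, and its mean in liver was 237.7 normalized counts.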
